A study of Mus musculus with 20 samples.

Results

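The mouse embryonic stem cells ES-E14TG2a, TKO and WT, were compared on Day 2 of neural differentiation, D2. All 4 libraries labelled D2 entered the comparison, 2 biological replicates of each genotype according to the labels, of 20 libraries over D0, D2, D4, D6 and D8. ES-E14TG2a, often called E14, is a male line. The labels give the genotypes only as WT and TKO, do not define TKO and do not say whether TKO cells come from 1 clone. The D0 cells were grown without feeders on gelatin in serum with LIF, the cytokine that holds mouse stem cells in self-renewal. For D2 both genotypes were replated on laminin in N2B27, a serum-free medium without added LIF, and harvested at D2 of what the labels call NPC differentiation. RNA was sequenced as strand-specific poly(A) libraries, and p-values measure the spread between these replicate cultures only.

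DNA methylation in mammals is written on cytosines of CG pairs. Dnmt3a and Dnmt3b set new marks and Dnmt1 copies them after replication. The marks are laid down anew as the epiblast leaves the naive state, and they are known to hold germline genes, genes of the X chromosome expressed in testis and 1 parental copy of imprinted genes silent. Exit from naive pluripotency in N2B27 passes through a formative state, marked by Otx2, Fgf5 and Dnmt3b, before neural progenitors with Sox1 and Pax6 appear.

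The D2 libraries held 26015282 to 38074768 estimated counts, and levels are given as CPM, which are counts out of 1000000 after a correction for library composition. The libraries held RNA of pluripotency and of early neural genes, and bulk RNA does not show whether the same cells expressed both. Pou5f1, the central factor of pluripotency, measured 1420 and 1510 CPM in the WT libraries and 1170 and 1030 CPM in the TKO libraries. Sox1, the earliest neural factor, measured 74.5 and 78.3 CPM in the WT libraries and 97.8 and 98.9 CPM in the TKO libraries. Hes5, a Notch target of established progenitors, stood at or under 0.446 CPM in all 4 libraries. Of 18555 genes tested with edgeR's quasi-likelihood test, 6554 (35.3%) had an adjusted p under 0.05 by Benjamini and Hochberg's method and are said to have passed. Among them 3419 (18.4%) were higher and 3135 (16.9%) lower in TKO, and 54.2% of the 6554 changed by less than 1.5-fold. At 2-fold or more the directions were unequal, with 1600 genes higher (8.62%) and 243 lower (1.31%). At 4-fold or more 657 were higher and 46 lower. The median log2 fold change over all genes tested was -0.001. Many genes of both directions were weakly expressed. The 1600 genes had a median level of 0.683 CPM in WT and 2.67 CPM in TKO, with 934 (58.4%) under 1 CPM in WT, and the 243 genes had 2.66 CPM in WT and 0.904 CPM in TKO, with 130 (53.5%) under 1 CPM in TKO.

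**Figure D1:**
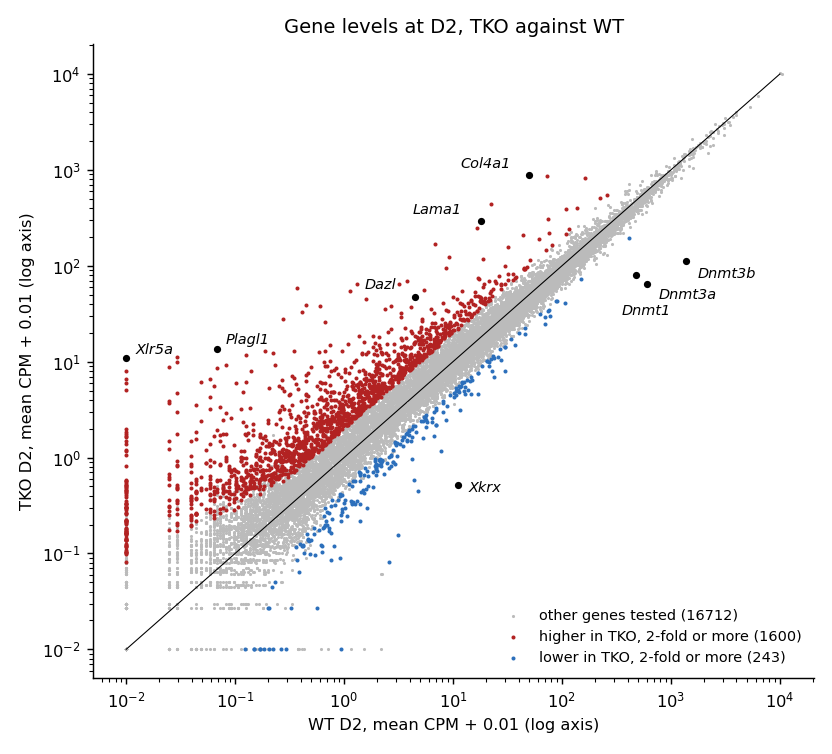
Mean level of each tested gene in the 2 WT libraries (horizontal) and the 2 TKO libraries (vertical) at D2, in CPM plus 0.01 on log axes, with the line of equal levels. Red points (1600) were higher and blue points (243) lower in TKO by 2-fold or more with an adjusted p under 0.05, and Dnmt1, Dnmt3a and Dnmt3b lie below the line at high WT levels.

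The 3 enzymes that write DNA methylation were the most abundant of the genes that fell by 2-fold or more. Dnmt3b (chr2:153649450-153687730 in GRCm38, as for all positions here) measured 1450 and 1330 CPM in the WT libraries and 110 and 112 CPM in the TKO libraries (log2 fold change -3.64 ± 0.13, adjusted p = 9.4e-13, the ± here and below being the standard error). Dnmt3a (chr12:3806007-3914443) measured 607 and 611 CPM in the WT libraries and 65.8 and 62.8 CPM in the TKO libraries (log2 fold change -3.24 ± 0.07, adjusted p = 4.5e-15). Dnmt1 (chr9:20907209-20959888) measured 478 and 484 CPM in the WT libraries and 80.9 and 78.6 CPM in the TKO libraries (log2 fold change -2.59 ± 0.09, adjusted p = 8.2e-13). In all 3 genes both WT libraries lay several times above both TKO libraries. As in these, the WT and TKO libraries did not overlap in any gene that is named with its 4 values in what follows and is called higher or lower. For genes named by the size of a change this was required by the naming rule. The share of all genes without overlap is not given, so absence of overlap is a description here and below and no support for a call. D2 was chosen for this comparison as the day of the highest WT level of Dnmt3a and Dnmt3b, so their course is a description and was not tested: mean WT Dnmt3b was 83.2 ± 9.21 CPM at D0, 1390 ± 86.8 CPM at D2 and 274 ± 9.24 CPM at D4 (SD, n = 2), and mean WT Dnmt3a was 98.9 ± 7.66, 609 ± 3.14 and 89 ± 4.75 CPM. TKO levels of Dnmt3b were also highest at D2 of these 3 days, at 27.2 ± 1.41, 111 ± 1.64 and 30.3 ± 3.18 CPM. The log2 fold change at D0 was -1.61 for Dnmt3b and -2.09 for Dnmt3a. For Dnmt1 it was -2.49 at D0 and -2.59 at D2, and the difference between the days did not pass. The remaining signal was uneven over transcripts. Dnmt3b-202 was estimated at 128 and 110 TPM in WT and 0.283 and 1.75 TPM in TKO, while Dnmt3b-206 was at 6.78 and 6.68 TPM in WT and 6.09 and 5.15 TPM in TKO. TPM is reads per base of transcript scaled to a fixed sum. Dnmt3b shares 13.5% of its 31-base words with transcripts of other genes, so part of its estimate is uncertain.

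**Figure D2:**
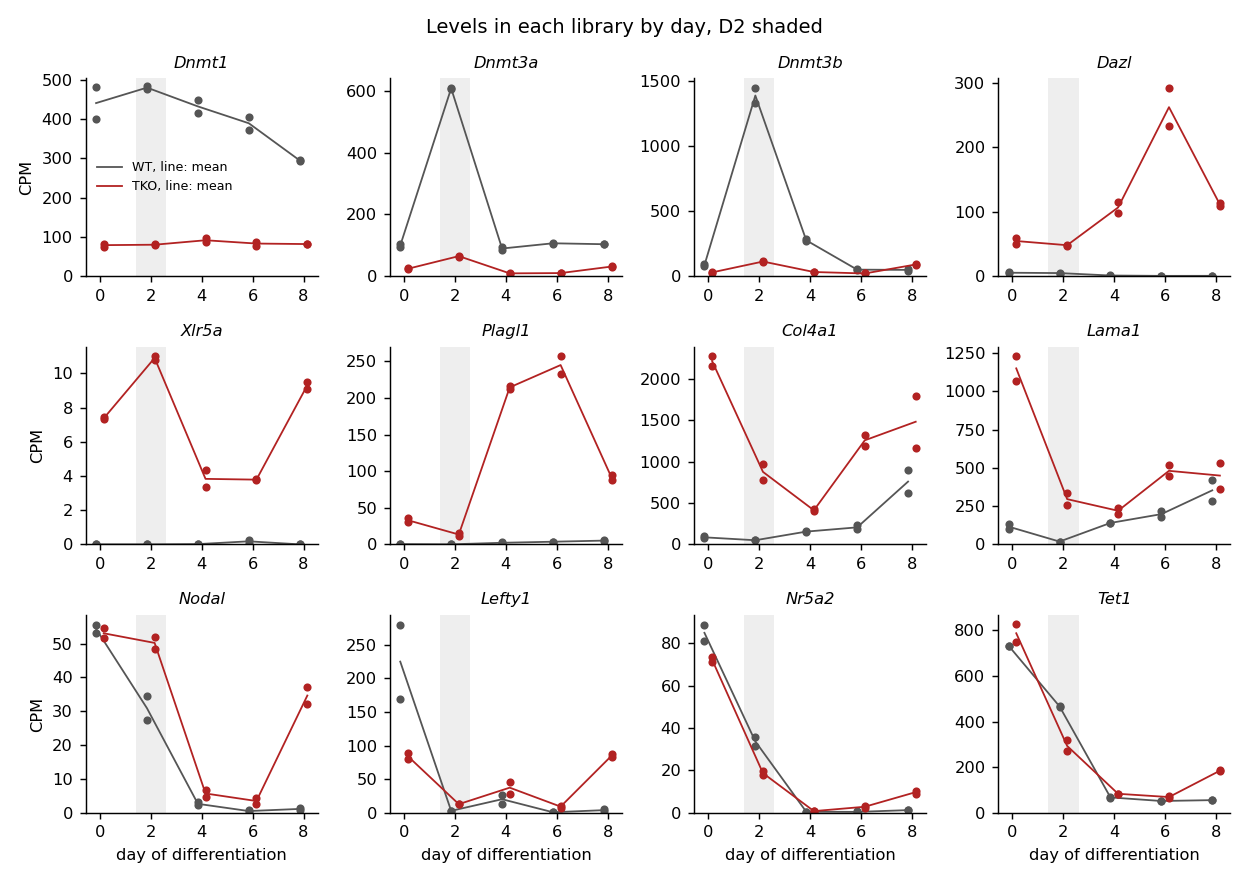
Level in CPM of 12 genes in each library (points) and the mean of the 2 libraries (lines) by day of differentiation, WT in grey and TKO in red, with D2 shaded. WT Dnmt3a and Dnmt3b reach their highest means at D2 (609 and 1390 CPM), and TKO Col4a1 and Lama1 lie above WT at D2 (878 against 49.8 CPM and 295 against 18.2 CPM).

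Other genes tied to DNA methylation were counted together with these enzymes. Of 12 genes for DNA methyltransferases and their partners 2 were higher, 5 lower and 5 did not pass, with a median log2 fold change of -0.13. Those lower include Dnmt1, Dnmt3a and Dnmt3b themselves. Among all genes tested 18.4% were higher and 16.9% lower. Dnmt3l, the catalytically inactive partner that stimulates Dnmt3a and Dnmt3b, was higher in TKO with 223 and 224 CPM for WT against 531 and 487 CPM for TKO (log2 fold change 1.19 ± 0.16, adjusted p = 1.9e-05). Uhrf1, which brings Dnmt1 to newly copied DNA and shares 24.2% of its 31-base words with other genes, measured 515 and 516 CPM in the WT libraries and 557 and 526 CPM in the TKO libraries and did not pass (adjusted p = 0.41). Of 16 genes for Tet enzymes, which oxidize methylated cytosine, and for base excision, 8 were lower and 2 higher. Tet1, the main Tet enzyme of stem cells, was lower with 468 and 465 CPM for WT against 269 and 317 CPM for TKO (log2 fold change -0.67 ± 0.08, adjusted p = 3.3e-06). Its log2 fold change was 0.10 at D0, and the change between the days passed (-0.78 ± 0.11, adjusted p = 0.00013). Tet2 was also lower, with 51 and 55.6 CPM for WT against 37.1 and 39.1 CPM for TKO. The third Tet enzyme, Tet3, was higher (log2 fold change 0.66 ± 0.15, adjusted p = 0.0027), a call lost without WT replicate 2 (adjusted p = 0.0586). Gadd45a, a factor that has been tied to DNA demethylation, was lower with 71.8 and 76.3 CPM for WT against 35.2 and 32.6 CPM for TKO (log2 fold change -1.13 ± 0.12, adjusted p = 1.7e-06). Zfp57, which holds imprinted regions methylated, was lower with 303 and 336 CPM for WT against 229 and 207 CPM for TKO (log2 fold change -0.55 ± 0.08, adjusted p = 6.2e-05), and 5 of 10 genes for readers of methylated DNA were lower and 1 higher. Of 20 factors that silence retroelements 10 were lower and 1 higher, by small amounts: Trim28, the corepressor of KRAB zinc finger proteins, had a log2 fold change of -0.35 ± 0.07 and Cbx5, a heterochromatin protein, -0.53 ± 0.06. Zfp809, which targets retroviral DNA, was the single member higher in TKO (0.48 ± 0.07).

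The starts of 5 genes are shown, because they lead the germline, X-linked, imprinted and basement membrane results below and differ in their CG pairs, the letters that Dnmt enzymes act on. The windows run from 250 bases before to 50 bases after the RefSeq start (GRCm38.p6), 5′ to 3′ on the gene's strand, and capitals mark CG pairs, which read the same on both strands. Dazl (chr17:50293571-50293870, minus strand) and Fkbp6 (chr5:135349864-135350163, minus strand, 1 of 2 starts in the table) are germline genes, Xlr5a (chrX:73117653-73117952, minus strand) is X-linked, Plagl1 (chr10:13090582-13090881, plus strand) is imprinted, and Col4a1 (chr8:11312777-11313076, minus strand) encodes a basement membrane collagen.
Dazl: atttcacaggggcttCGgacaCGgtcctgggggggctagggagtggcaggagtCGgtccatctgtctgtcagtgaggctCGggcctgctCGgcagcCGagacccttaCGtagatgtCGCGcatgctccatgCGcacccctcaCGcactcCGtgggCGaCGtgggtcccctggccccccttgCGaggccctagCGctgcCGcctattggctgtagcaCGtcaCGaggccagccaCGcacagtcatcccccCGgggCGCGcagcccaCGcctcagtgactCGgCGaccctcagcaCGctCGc
Fkbp6: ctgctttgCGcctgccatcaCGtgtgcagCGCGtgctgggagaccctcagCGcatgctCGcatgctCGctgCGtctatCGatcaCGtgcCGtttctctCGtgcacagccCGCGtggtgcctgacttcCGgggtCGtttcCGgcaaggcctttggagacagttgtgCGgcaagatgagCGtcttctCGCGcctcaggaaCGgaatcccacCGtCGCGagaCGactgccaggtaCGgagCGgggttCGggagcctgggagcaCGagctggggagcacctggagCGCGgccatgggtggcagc
Xlr5a: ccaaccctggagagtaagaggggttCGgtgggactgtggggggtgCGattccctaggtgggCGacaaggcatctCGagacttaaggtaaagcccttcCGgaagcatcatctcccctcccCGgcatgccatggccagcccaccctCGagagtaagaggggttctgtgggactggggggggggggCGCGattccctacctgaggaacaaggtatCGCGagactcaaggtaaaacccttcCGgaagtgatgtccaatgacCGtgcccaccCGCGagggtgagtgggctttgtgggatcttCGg
Plagl1: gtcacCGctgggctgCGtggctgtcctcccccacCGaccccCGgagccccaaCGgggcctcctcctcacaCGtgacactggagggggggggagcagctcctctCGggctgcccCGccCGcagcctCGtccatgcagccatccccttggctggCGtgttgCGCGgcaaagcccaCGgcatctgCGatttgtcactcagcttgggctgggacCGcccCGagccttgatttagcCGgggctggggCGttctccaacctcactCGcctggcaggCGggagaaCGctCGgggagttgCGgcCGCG
Col4a1: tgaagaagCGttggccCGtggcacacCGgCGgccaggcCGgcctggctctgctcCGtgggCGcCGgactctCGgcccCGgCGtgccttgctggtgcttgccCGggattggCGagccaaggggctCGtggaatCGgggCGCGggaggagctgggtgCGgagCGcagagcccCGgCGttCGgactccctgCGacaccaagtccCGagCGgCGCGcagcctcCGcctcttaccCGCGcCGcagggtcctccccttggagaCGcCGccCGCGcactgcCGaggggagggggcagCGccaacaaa
They hold 28, 32, 16, 26 and 37 CG pairs in this order, and the median of all 32851 RefSeq windows of this length is 7. Such counts were common among the genes tested. Of 13036 tested genes with a window, 6043 held 20 or more CG pairs and 3601 held 10 to 19, by the median over starts. A link between CG pairs and a rise in TKO was not tested. A window with as many CG pairs as that of Dazl occurs in 14.2% of all windows, of Fkbp6 in 9.5%, of Xlr5a in 33.0%, of Plagl1 in 16.9% and of Col4a1 in 5.6%. For Fkbp6 the start with the most CG pairs of its 2 was taken, so its rank partly reflects that choice. The divergent neighbour Col4a2 starts on the other strand, and its window overlaps that of Col4a1 by 78 bases. Shares of called genes by CG content are not given, because the table covers 70.3% of the genes tested, too few for that comparison.

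Germline RNA-binding genes were among the clearest differences. Of 23 genes of the piRNA pathway and germline RNA binding 13 were higher, 1 lower and 9 did not pass, with a median of 0.93. The shares over all genes tested were 18.4% higher and 16.9% lower. Dazl, a translation regulator of germ cells, measured 5.11 and 3.78 CPM in the WT libraries and 47.1 and 48.3 CPM in the TKO libraries (log2 fold change 3.44 ± 0.18, adjusted p = 2.8e-10). Both TKO libraries were close to each other and far above WT. Fkbp6, a chaperone partner of piRNA biogenesis, rose from traces with 1.43 and 0.815 CPM for WT against 57 and 53.2 CPM for TKO (log2 fold change 5.66 ± 0.17, adjusted p = 1.4e-13). Asz1, another piRNA factor, had 1 and 0 counts in WT and 123 and 127 in TKO, a ratio of 278 (95% counting interval 49.4 to 11000) after scaling to depth. Piwil2, a Piwi protein, was higher with 26.9 and 22.9 CPM for WT against 67.4 and 63.9 CPM for TKO (log2 fold change 1.40 ± 0.10, adjusted p = 1.5e-08), although its log2 fold change in D0 cells was -0.16 (1.56 ± 0.15, adjusted p = 2.4e-06 for the difference between the days). Piwil4, the Piwi protein of fetal male germ cells, was likewise higher at D2 with 1.55 and 1.46 CPM for WT against 6.48 and 6.65 CPM for TKO, by more than at D0 (1.62 more in log2 terms). The pathway thus held genes that passed on both days, such as Dazl, and genes that passed at D2 but not at D0, such as these 2 Piwi genes. Tdrd1, a scaffold of the same pathway, went the other way with 8.6 and 7.05 CPM for WT against 0.96 and 1.36 CPM for TKO (log2 fold change -2.76 ± 0.32, adjusted p = 2.9e-06). Ddx4, the germ cell helicase, measured 26.9 and 23.3 CPM in the WT libraries and 23.1 and 23.4 CPM in the TKO libraries and did not pass (adjusted p = 0.57).

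Meiotic genes were more often higher than lower in TKO. Of 25 members 12 were higher, 4 lower and 9 did not pass, with a median of 0.40. Among all genes tested 18.4% were higher and 16.9% lower, so the number of lower members is near the share of all genes. Smc1b, the meiotic cohesin subunit, was higher with 3.56 and 3.09 CPM for WT against 33 and 30.8 CPM for TKO (log2 fold change 3.27 ± 0.21, adjusted p = 3.3e-09). Stag3, another meiotic cohesin, was already expressed in WT and was higher in TKO with 45.7 and 44.7 CPM for WT against 89.4 and 95.8 CPM for TKO (log2 fold change 1.03 ± 0.14, adjusted p = 1.7e-05). Stra8, the retinoic acid target that starts meiosis, was higher with 1.78 and 1.69 CPM for WT against 7.3 and 6.94 CPM for TKO (log2 fold change 2.04 ± 0.30, adjusted p = 8.0e-05), while at D0 its log2 fold change was -2.09. These 3 genes differ in WT level, from trace to moderate. Sycp3, a protein of the chromosome axis, was lower with 30.1 and 29.7 CPM for WT against 8.13 and 7.94 CPM for TKO (log2 fold change -1.89 ± 0.17, adjusted p = 2.0e-07), and it shares 46.5% of its 31-base words with other genes. Meioc, a regulator of meiotic prophase, was lower with 20.7 and 17.8 CPM for WT against 10.6 and 10.3 CPM for TKO (log2 fold change -0.88 ± 0.13, adjusted p = 4.5e-05). Of 16 listed testis isoforms of widely expressed proteins 15 were tested, 9 of which were higher and 1 lower. Taf7l, a testis relative of a subunit of the general transcription factor TFIID, was higher with 1.78 and 2.1 CPM for WT against 7.95 and 9.02 CPM for TKO (log2 fold change 2.12 ± 0.17, adjusted p = 5.9e-08). Adad2, an RNA-binding testis protein, was the member lower in TKO, with 12.3 and 10.9 CPM for WT against 3.12 and 3.17 CPM for TKO.

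X-linked families with testis expression held many genes at low levels or 0 counts in WT and at clear levels in TKO. The list medians were much the same in the D0 cells. At D0 and D2 they were 8.327 and 8.818 for Xlr, 6.774 and 7.074 for Mage, and 2.463 and 2.535 for Rhox. The difference between these days passed for 1 Xlr gene, 0 Mage genes and 1 Rhox gene. Members of such families could enter the test through the groups where they are high, so counts of those tested are partly set by the filter on low counts and describe the libraries only. All 10 genes of the Xlr family, lymphocyte-regulated X-linked genes related to the synaptonemal complex protein Sycp3, were higher, with a summed level of 1.86 and 1.17 CPM (WT) against 161 and 152 CPM (TKO). Xlr5a had 0 counts in both WT libraries and 322 and 269 in TKO, at least 219-fold higher taking 3 counts in the WT libraries together as the floor, and Xlr5b (at least 162-fold) and Xlr4c (at least 132-fold) were also at 0 in WT. Xlr3a, at trace level in WT, was higher with 0.697 and 0.175 CPM for WT against 39.1 and 39.3 CPM for TKO (log2 fold change 6.60 ± 0.21, adjusted p = 2.7e-13). Every Xlr gene shares at least 10% of its 31-base words with relatives, so the level of a single member is uncertain. Of 15 annotated Mage genes, cancer-testis antigens of the X chromosome, 8 had enough counts to be tested, 7 of which were higher. Magea5, with 0 counts in WT, reached 5.55 and 4.65 CPM in the TKO libraries, at least 103-fold higher by the same floor. Mageb16, already expressed in WT, measured 36.3 and 35.7 CPM in the WT libraries and 39.9 and 41.5 CPM in the TKO libraries and did not pass (adjusted p = 0.36). Magea5 and Mageb16 share 62% and 55.6% of their 31-base words with other genes. Of 15 annotated genes of the Rhox cluster of reproductive homeobox factors 10 had enough counts to be tested, 8 of which were higher. Rhox1 was higher with 1.67 and 2.07 CPM for WT against 11.5 and 12.6 CPM for TKO (log2 fold change 2.68 ± 0.23, adjusted p = 1.5e-07), and Rhox13 with 1.43 and 0.99 CPM for WT against 6.82 and 5.17 CPM for TKO (log2 fold change 2.33 ± 0.25, adjusted p = 2.5e-06). Nxf3, an X-linked relative of the main mRNA export factor, was higher with 3.52 and 2.82 CPM for WT against 62.2 and 66.6 CPM for TKO (log2 fold change 4.36 ± 0.14, adjusted p = 2.7e-13).

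By chromosome, 162 of 734 tested X-linked genes (22.1%) were higher by 2-fold or more, against 1432 of 17776 autosomal genes (8.06%). Single autosomes ran from 5.68% on chromosome 14 to 10.4% on chromosome 13. The share lower by 2-fold or more was 1.36% on X and 1.31% on autosomes. On Y 5 of 22 tested genes (22.7%) were higher by 2-fold or more. The X count includes members of the families above, and genes could enter the test through the groups where they are high. These shares are thus partly set by the filter on low counts and describe the libraries only. Of 8 listed Y-linked genes 7 were tested, 6 of which were higher. Kdm5d, a Y-linked histone demethylase, was higher with 4.96 and 5.18 CPM for WT against 21.3 and 22.8 CPM for TKO (log2 fold change 2.12 ± 0.10, adjusted p = 4.8e-11), and Ddx3y, a Y-linked RNA helicase, with 18 and 18.4 CPM for WT against 43.1 and 48.5 CPM for TKO (log2 fold change 1.33 ± 0.10, adjusted p = 3.5e-08). Eif2s3y, a Y-linked translation factor subunit, measured 77.7 and 73.6 CPM in the WT libraries and 73.6 and 73.7 CPM in the TKO libraries and did not pass (adjusted p = 0.71).

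**Figure D3:**
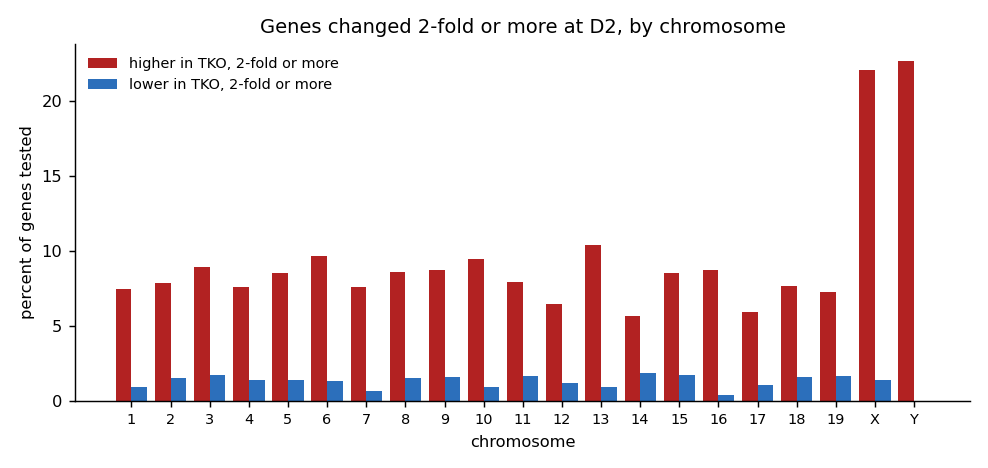
Percent of tested genes of each chromosome that were higher (red) or lower (blue) in TKO at D2 by 2-fold or more with an adjusted p under 0.05. The X (22.1%) and Y (22.7%) bars for higher genes stand above those of all autosomes (5.68% to 10.4%).

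Imprinted genes were counted by the parental copy they are expressed from, and the 2 lists were not tested against each other. Of 21 paternally expressed genes 18 were higher, none lower and 3 did not pass, with a median of 1.08. Of 13 maternally expressed genes 3 were higher, 3 lower and 7 short of the threshold, with a median of -0.20. These maternal counts are near the 18.4% higher and 16.9% lower of all genes tested, so they are no result about that list. Plagl1, a zinc finger factor, had 3 and 0 counts in WT and 344 and 376 in TKO, a ratio of 267 (95% counting interval 90.9 to 1300). Peg10, a retrotransposon-derived gene, was higher with 146 and 129 CPM for WT against 387 and 408 CPM for TKO (log2 fold change 1.53 ± 0.09, adjusted p = 6.0e-10), and Peg3, another zinc finger gene, with 127 and 103 CPM for WT against 210 and 278 CPM for TKO (log2 fold change 1.08 ± 0.13, adjusted p = 6.7e-06). The groups did not overlap in either gene. Nnat, a membrane protein of neural tissue, was higher with a mean of 2.07 ± 0.415 CPM in WT and 18 ± 1.54 CPM in TKO (SD, n = 2; log2 fold change 3.15 ± 0.18, adjusted p = 6.9e-10), by more than at D0 (2.17 more in log2 terms). Dlk1, a ligand related to Notch ligands, was higher with 0.775 and 0.553 CPM for WT against 13.4 and 12.3 CPM for TKO (log2 fold change 4.30 ± 0.23, adjusted p = 3.0e-10), also by more than at D0 (2.02). Mest (1.08 ± 0.06) and Snrpn (0.71 ± 0.06) were higher too, but share 22% and 34.5% of their 31-base words with other genes. Igf2, the fetal growth factor, which shares 61.9% of its 31-base words with other genes, did not pass at D2 with 13.1 and 7.54 CPM for WT against 12.3 and 14 CPM for TKO (adjusted p = 0.19), although its log2 fold change at D0 was -4.57 (4.95 ± 0.34, adjusted p = 9.9e-08 for the difference). Among maternally expressed genes, Cdkn1c, a cell cycle inhibitor, was lower with 60 and 73.6 CPM for WT against 38.2 and 35.2 CPM for TKO (log2 fold change -0.87 ± 0.09, adjusted p = 1.2e-06), and Phlda2, a placental growth regulator, with 16.3 and 17.4 CPM for WT against 9.09 and 7.82 CPM for TKO (log2 fold change -0.99 ± 0.14, adjusted p = 2.0e-05). Grb10, a signalling adaptor, measured 383 and 341 CPM in the WT libraries and 372 and 416 CPM in the TKO libraries and did not pass, against -1.77 at D0 (1.90 ± 0.17, adjusted p = 2.1e-06).

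Markers of primitive and visceral endoderm, the lineage beside the epiblast that covers it and builds basement membrane, were higher in TKO. Of 24 listed markers 23 were tested, with 20 higher, 1 lower and 2 short of the threshold. The shares over all genes tested were 18.4% higher and 16.9% lower. The summed level of the 23 markers was 45.0 and 50.6 CPM (WT) against 428 and 546 CPM (TKO). The list was already higher in the D0 cells, with a median log2 fold change of 2.833 at D0 and 3.375 at D2. For 2 of the 23 genes the difference between these days passed. Gata6, a factor that sets endoderm fate, measured 1.08 and 1.05 CPM in the WT libraries and 13.7 and 16.7 CPM in the TKO libraries (log2 fold change 3.83 ± 0.32, adjusted p = 8.9e-08), and Gata4, its relative, 3.33 and 4.05 CPM in the WT libraries and 15.5 and 20.1 CPM in the TKO libraries (log2 fold change 2.25 ± 0.30, adjusted p = 1.5e-05). Sox17, an endoderm transcription factor, measured 0.271 and 0.699 CPM in the WT libraries and 7.47 and 10.1 CPM in the TKO libraries (log2 fold change 4.09 ± 0.39, adjusted p = 3.5e-07). All 3 are transcription factors at low level in WT. The receptor Pdgfra was higher with 1.24 and 1.46 CPM for WT against 17.6 and 19.7 CPM for TKO (log2 fold change 3.77 ± 0.31, adjusted p = 7.0e-08), and the endocytic adaptor Dab2 with 8.68 and 8.71 CPM for WT against 84.9 and 105 CPM for TKO (log2 fold change 3.45 ± 0.23, adjusted p = 6.4e-09). Cubn, an uptake receptor of visceral endoderm, was the most abundant of those named here with 15.5 and 17.9 CPM in the WT libraries and 207 and 286 CPM in the TKO libraries (log2 fold change 3.88 ± 0.30, adjusted p = 3.1e-08). No WT library was at 0 for these 6 genes, and TKO replicate 2 was above replicate 1 in all of them. In bulk RNA, more cells of this type and more of their RNA per cell cannot be told apart. Trf, the iron carrier transferrin, was the marker lower in TKO (-1.35 in log2 terms).

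Genes of the basement membrane included some of the greatest rises in level. Of 13 members 8 were higher, 1 lower and 4 did not pass, with a median of 0.68, beside 18.4% higher and 16.9% lower of all genes. Col4a1 measured 49.6 and 50.1 CPM in the WT libraries and 777 and 978 CPM in the TKO libraries (log2 fold change 4.14 ± 0.21, adjusted p = 1.7e-10), and Col4a2, the second chain of collagen IV encoded beside it, 22.2 and 22.8 CPM in the WT libraries and 392 and 485 CPM in the TKO libraries (log2 fold change 4.28 ± 0.19, adjusted p = 3.0e-11). Lama1, the alpha chain of laminin 111, measured 17.9 and 18.5 CPM in the WT libraries and 256 and 335 CPM in the TKO libraries (log2 fold change 4.02 ± 0.22, adjusted p = 4.6e-10). The groups were far apart in all 3 genes, with TKO replicate 2 above replicate 1 as for the endoderm markers, whose part in these differences was not tested. Both chains of collagen IV had similar log2 fold changes. Sparc, a collagen-binding matrix protein, was higher with 113 and 105 CPM for WT against 377 and 397 CPM for TKO (log2 fold change 1.83 ± 0.13, adjusted p = 1.1e-08), and Lamc1, a laminin chain already abundant in WT, with 387 and 372 CPM for WT against 574 and 642 CPM for TKO (log2 fold change 0.68 ± 0.13, adjusted p = 0.00065). Both Col4a1 and Lama1 were already far higher in TKO in the D0 cells. Col4a1 at D0 measured 74.5 and 96 CPM in the WT libraries and 2160 and 2280 CPM in the TKO libraries. Lama1 at D0 measured 99.6 and 132 CPM in the WT libraries and 1070 and 1230 CPM in the TKO libraries. In D4 cells the Col4a1 difference was smaller than at D2 (1.42 in log2 terms, difference between the days -2.72 ± 0.27, adjusted p = 3.0e-06), as was that of Lama1 (-3.37 ± 0.29, adjusted p = 7.8e-07). Noct, a circadian phosphatase, and Slc38a6, an amino acid transporter, rose by similarly large amounts, Noct with 159 and 165 CPM for WT against 761 and 878 CPM for TKO and Slc38a6 with 72.2 and 72.3 CPM for WT against 783 and 926 CPM for TKO. They share 2452 31-base words, 23.3% of those of Noct, so reads cannot be assigned to 1 of them with certainty.

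Markers of other cell types were mixed. Of 21 listed genes of mesenchyme and fibroblasts 19 were tested, and 7 were higher and 1 lower, but the fibroblast collagen Col1a1 stayed at trace level with 0.465 and 0.524 CPM in the WT libraries and 0.446 and 0.762 CPM in the TKO libraries and did not pass (adjusted p = 0.64). Of 16 listed genes of the primitive streak and mesoderm 14 were tested, with 4 higher and 1 lower, beside 18.4% and 16.9% of all genes. Of 15 listed trophoblast genes 14 were tested, and 7 were higher and 2 lower. Of 18 listed genes of the 2-cell-like state 13 were tested, of which none passed with edgeR, none had an unadjusted p under 0.05 and DESeq2 called none. Of 13 mitochondrially encoded genes none passed with edgeR, 1 was higher at an unadjusted p under 0.05 and DESeq2 called none.

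**Figure D4:**
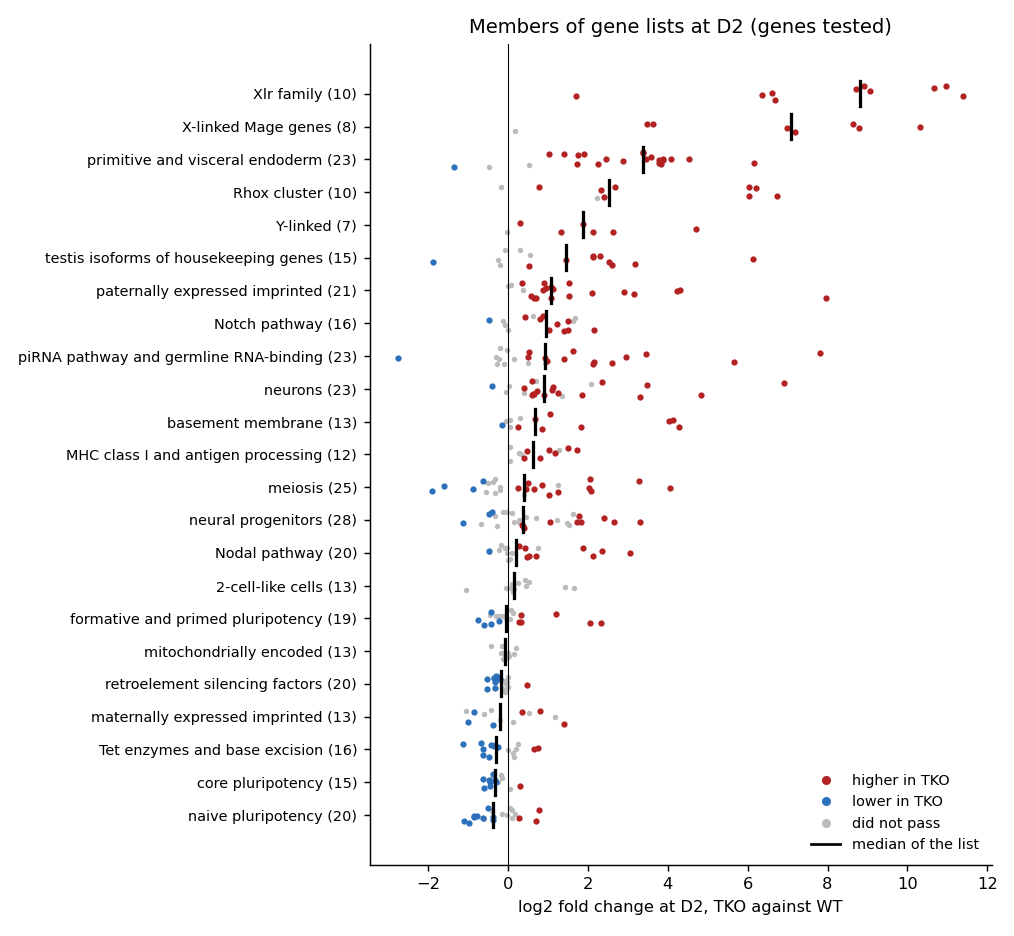
Log2 fold change of TKO against WT at D2 for each tested member (points) of 23 gene lists, with the number tested in brackets and the list median as a black bar. Red points were higher and blue points lower at an adjusted p under 0.05; medians of the Xlr and Mage lists rest on fitted values of genes near 0 counts in WT, and the lowest median is -0.38 for naive pluripotency.

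Among naive pluripotency genes more were lower than higher in TKO at D2. Of 20 members 9 were lower, 3 higher and 8 did not pass, with a median of -0.38, beside 16.9% lower and 18.4% higher of all genes. DESeq2 called 6 of the members lower and 3 higher. Fgf4, the factor through which stem cells drive their own exit from the naive state, measured 201 and 210 CPM in the WT libraries and 105 and 103 CPM in the TKO libraries (log2 fold change -0.99 ± 0.11, adjusted p = 3.3e-06). At D0 its log2 fold change was -0.06, and the difference between the days passed (-0.93 ± 0.16, adjusted p = 0.00069). Nr5a2, a nuclear receptor that sustains Pou5f1, was lower with 31.5 and 35.9 CPM for WT against 19.7 and 17.7 CPM for TKO (log2 fold change -0.85 ± 0.15, adjusted p = 0.0003), and Nr0b1, a corepressor of the naive network, with 74.6 and 89 CPM for WT against 48.9 and 42.4 CPM for TKO (log2 fold change -0.84 ± 0.14, adjusted p = 0.00014). Both differences were more negative than at D0 (-0.62 and -1.05 in log2 terms). The median of the naive list was already -0.24 at D0 and stood at 0.56 at D4. For 7 of its 20 genes the difference between D0 and D2 passed, in either direction. The naive factor Tfcp2l1 was lower as well (-0.78 ± 0.14), while Klf4 was higher with 11.3 and 11.3 CPM for WT against 18.9 and 17.8 CPM for TKO (log2 fold change 0.70 ± 0.12, adjusted p = 0.00023). Nanog, Zfp42 and Klf2 did not pass (adjusted p = 0.75, 0.92 and 0.8), of which Nanog and Zfp42 share 10.6% and 13.4% of their 31-base words with other genes. Of 15 core pluripotency genes 8 were lower and 1 higher, with a median of -0.33, and DESeq2 called 6 lower and 1 higher. Sox2 was lower with 294 and 315 CPM for WT against 229 and 213 CPM for TKO (log2 fold change -0.46 ± 0.06, adjusted p = 1.0e-05), and Sall4, which supports Pou5f1, had a log2 fold change of -0.46 ± 0.09. For Pou5f1 both TKO libraries lay below both WT libraries, and the difference did not pass (log2 fold change -0.41 ± 0.21, adjusted p = 0.14).

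Formative genes moved both ways, with 6 of 19 higher, 5 lower and a median of -0.04, beside 18.4% higher and 16.9% lower among all genes tested. Otx2, which redirects Pou5f1 to formative enhancers, was lower with 132 and 128 CPM for WT against 79.9 and 74.5 CPM for TKO (log2 fold change -0.76 ± 0.13, adjusted p = 0.00025). Other members of the list went up. Wnt8a, a Wnt ligand of the early posterior epiblast, was higher with 5.58 and 4.31 CPM for WT against 19.9 and 20.5 CPM for TKO (log2 fold change 2.04 ± 0.20, adjusted p = 6.4e-07), and Etv4, a target of Fgf signalling, with 24.5 and 30.6 CPM for WT against 67.5 and 59.3 CPM for TKO (log2 fold change 1.20 ± 0.24, adjusted p = 0.00092). Fgf5, the standard formative marker, did not pass (log2 fold change -0.32 ± 0.20, adjusted p = 0.24). Sox3, a factor of epiblast and neural plate, measured 62.9 and 60 CPM in the WT libraries and 67.5 and 67.3 CPM in the TKO libraries and did not pass, although its log2 fold change was 2.62 in D0 cells (-2.49 ± 0.12, adjusted p = 5.2e-09).

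Of 20 Nodal pathway genes 9 were higher, 1 lower and 10 short of the threshold, with a median of 0.20. The shares over all genes tested were 18.4% higher and 16.9% lower. Nodal itself, the ligand that keeps the epiblast from neural fate, measured 27.4 and 34.4 CPM in the WT libraries and 51.9 and 48.5 CPM in the TKO libraries (log2 fold change 0.70 ± 0.18, adjusted p = 0.0067). Its call was lost with DESeq2 (adjusted p = 0.102), without WT replicate 1 (adjusted p = 0.095) and without TKO replicate 1 (adjusted p = 0.0517). The Nodal antagonists and targets Lefty1 and Lefty2 were higher. Lefty1 had 2.4 and 3.38 CPM for WT against 13.3 and 12.4 CPM for TKO (log2 fold change 2.13 ± 0.41, adjusted p = 0.00061), and Lefty2 had 0.93 and 1.4 CPM for WT against 6.21 and 5.97 CPM for TKO (log2 fold change 2.35 ± 0.42, adjusted p = 0.00034). They share 25.7% and 18.4% of their 31-base words with other genes. In D0 cells Lefty1 had gone the other way (-1.42), and the difference between the days was 3.55 ± 0.48, adjusted p = 0.00011. Acvr1b, the type I receptor, was the member lower in TKO (-0.47 ± 0.07).

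Of 16 Notch pathway genes 9 were higher, 1 lower and 6 short of the threshold, with a median of 0.95 at D2 against -0.21 at D0. Over all genes tested the shares at D2 were 18.4% higher and 16.9% lower. Among the ligands, Jag1 was higher with 11.5 and 12.2 CPM for WT against 34.4 and 32.8 CPM for TKO (log2 fold change 1.50 ± 0.08, adjusted p = 3.9e-10). Jag2 was higher with 37.5 and 33.2 CPM for WT against 84.2 and 80.9 CPM for TKO (log2 fold change 1.23 ± 0.08, adjusted p = 3.9e-09) and Dll1 with 38 and 38.1 CPM for WT against 68 and 70.7 CPM for TKO (log2 fold change 0.86 ± 0.10, adjusted p = 2.6e-06). Ligands of both the Jagged and the Delta type thus rose. Dll3, which blocks Notch within the cell that makes it, was higher with 6.55 and 5.71 CPM for WT against 17.8 and 16.8 CPM for TKO (log2 fold change 1.51 ± 0.13, adjusted p = 8.9e-08). The target Hes1 was higher with 5.07 and 5.74 CPM for WT against 11.3 and 10.9 CPM for TKO (log2 fold change 1.03 ± 0.10, adjusted p = 7.9e-07), by more than at D0 (1.46 more). Notch1, the main receptor of the epiblast, had 44.9 and 44 CPM for WT against 58.7 and 60.9 CPM for TKO (log2 fold change 0.43 ± 0.06, adjusted p = 2.7e-05). With length-scaled TPM in place of summed counts the value for Notch1 was -0.20 and did not pass (adjusted p = 0.478), so its direction depends on how transcript lengths enter. Rbpj, the DNA-binding partner of Notch, was the member lower in TKO with 325 and 338 CPM for WT against 240 and 239 CPM for TKO (log2 fold change -0.47 ± 0.06, adjusted p = 1.4e-05), and shares 11.6% of its 31-base words with other genes.

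In other signalling pathways calls went both ways, with 11 of 31 Wnt pathway genes higher and 4 lower, and 6 of 25 Fgf and Mapk genes in each direction, beside 18.4% higher and 16.9% lower among all genes tested. Dkk1, a secreted Wnt inhibitor made by anterior visceral endoderm among other tissues, was higher with 0.194 and 0.349 CPM for WT against 4.8 and 5.09 CPM for TKO (log2 fold change 4.12 ± 0.37, adjusted p = 1.7e-07). Fgfr3, an Fgf receptor, was higher with 1.05 and 1.14 CPM for WT against 7.23 and 7.86 CPM for TKO (log2 fold change 2.78 ± 0.18, adjusted p = 3.4e-09). Spry2, a feedback inhibitor of Fgf signalling, was lower (-0.57 ± 0.10). Of 15 retinoic acid pathway genes 6 were higher and 3 lower. Crabp2, which carries retinoic acid to its receptors, was higher with 15.5 and 12.3 CPM for WT against 37.5 and 36.8 CPM for TKO (log2 fold change 1.43 ± 0.14, adjusted p = 4.4e-07).

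Genes of neural progenitors moved both ways, and 16 of 23 neuronal genes were higher. In the list of 28 progenitor genes 10 were higher, 3 were lower and 15 did not pass, with a median of 0.38. Among all genes tested 18.4% were higher and 16.9% lower. Nes, the intermediate filament of neural progenitors, was higher with 16 and 15.8 CPM for WT against 54.6 and 51.1 CPM for TKO (log2 fold change 1.73 ± 0.10, adjusted p = 4.1e-10). Pax6, a forebrain and eye factor, was lower with 57.6 and 57.3 CPM for WT against 44.2 and 41.9 CPM for TKO (log2 fold change -0.41 ± 0.06, adjusted p = 7.3e-05), and Sox21, which promotes neuronal differentiation, with 75.6 and 75.5 CPM for WT against 34.8 and 34.5 CPM for TKO (log2 fold change -1.12 ± 0.06, adjusted p = 4.1e-10). Sox1 was higher by a small amount (log2 fold change 0.36 ± 0.09, adjusted p = 0.006), and its call was lost without WT replicate 1 (adjusted p = 0.0614). Of the neuronal genes 1 was lower and 6 were short of the threshold, with a median of 0.90. Stmn2, a microtubule regulator of growing axons, was higher with 131 and 139 CPM for WT against 227 and 197 CPM for TKO (log2 fold change 0.65 ± 0.09, adjusted p = 3.8e-05). Elavl3, a neuronal RNA-binding protein, was higher with 10.8 and 8.53 CPM for WT against 20.1 and 20.7 CPM for TKO (log2 fold change 1.09 ± 0.15, adjusted p = 2.1e-05). Both genes were already detected in both WT libraries.

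Of 12 genes for MHC class I and antigen processing 7 were higher and none lower, with a median of 0.63 at D2 and -0.11 at D0. H2-D1, a classical class I heavy chain that shares 26.9% of its 31-base words with other genes, measured 16.8 and 17.4 CPM in the WT libraries and 48.3 and 48.1 CPM in the TKO libraries (log2 fold change 1.49 ± 0.14, adjusted p = 3.8e-07). B2m, the light chain of all class I molecules, measured 6.86 and 7.08 CPM in the WT libraries and 14.1 and 14.2 CPM in the TKO libraries (log2 fold change 1.02 ± 0.10, adjusted p = 3.0e-07), with both TKO libraries above both WT libraries. At D0 the log2 fold change of B2m was -0.41 (difference between the days 1.43 ± 0.12, adjusted p = 1.3e-06), and 8 of the 12 genes passed this test of the difference. The WT level of B2m was lowest at D2 of these 3 days, and TKO was above it only there. Mean WT B2m was 31.1 ± 2.27 CPM at D0, 6.97 ± 0.155 CPM at D2 and 34.5 ± 1.37 CPM at D4, and mean TKO B2m was 23.5 ± 0.209, 14.1 ± 0.123 and 28.6 ± 0.132 CPM. Of 31 listed genes of interferon response and nucleic acid sensing 30 were tested, with 5 higher and 3 lower. These counts are no more than the 18.4% and 16.9% of all genes would give, so they are no result about the list. Among its single genes, Irf1, an interferon-induced factor that activates class I genes, was higher with 6.97 and 7.42 CPM for WT against 14.1 and 14.2 CPM for TKO (log2 fold change 0.97 ± 0.17, adjusted p = 0.00029), and Bst2, an antiviral membrane protein, with 55.2 and 51.4 CPM for WT against 103 and 99.2 CPM for TKO (log2 fold change 0.92 ± 0.14, adjusted p = 6.4e-05).

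The genotype difference at D2 was set against that of the stem cells at D0, which uses other libraries and in which 39.3% of the genes were called. In the test of the difference 3421 genes passed (18.4%), 1800 with a more positive log2 fold change at D2 (9.7%) and 1621 with a more negative one (8.74%). The 2 WT D0 libraries agreed least of all groups. Their chi-square per degree of freedom, the spread in units of counting error, was 29.52, against 11.33 for WT D4, the next highest. Of the genes higher at D2, 1820 were also higher at D0, which is 53.2% of those at D2 and 50.6% of those at D0. Of the genes lower at D2, 1571 were also lower at D0, 50.1% and 42.5% of each list. Another 259 genes were higher at D2 and lower at D0, and 140 were lower at D2 and higher at D0. Genes higher by 2-fold or more numbered 1274 at D0 and 1600 at D2, with 740 in both. Genes lower by 2-fold or more numbered 856 at D0 and 243 at D2, with 124 in both. Pga5, a pepsinogen gene, had the most positive difference among the genes named by rule, with 0.62 and 0.699 CPM for WT against 22.5 and 29.1 CPM for TKO at D2 (5.41 ± 0.53, adjusted p = 3.7e-06 for the difference). Sema6a, a semaphorin of axon guidance, was higher at D0 (1.69) and lower at D2 with 40.4 and 34.3 CPM for WT against 25.4 and 23.7 CPM for TKO (-2.29 ± 0.23, adjusted p = 5.7e-06).

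**Figure D5:**
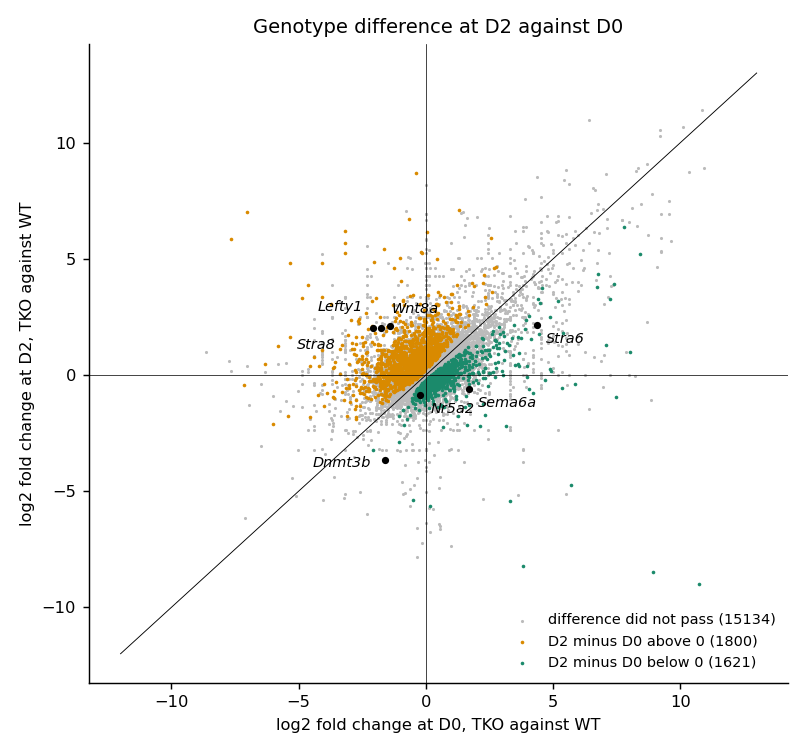
Log2 fold change of TKO against WT at D0 (horizontal) and D2 (vertical) for 18555 genes, with the line of equal values. Orange points (1800) were more positive and green points (1621) more negative at D2 in the test of the difference, with Stra8, Lefty1 and Wnt8a above the line and Dnmt3b, Nr5a2, Sema6a and Stra6 below it.

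Against D4, which shares the D2 libraries in the difference itself, 2940 genes passed (15.8%), 1412 more positive at D4 (7.61%) and 1528 more negative (8.23%). Dazl had a log2 fold change of 3.44 at D2 and 7.32 at D4 (3.87 ± 0.35, adjusted p = 1.6e-06). Its mean WT level was 4.45 ± 0.939 CPM at D2 and 0.662 ± 0.0265 CPM at D4, and its mean TKO level 47.7 ± 0.82 and 106 ± 12.3 CPM. Dab2 of the endoderm list had a log2 fold change of 0.26 at D4 and did not pass there (-3.19 against D2). Amn, the partner of Cubn in visceral endoderm, was lower in TKO at D4, a difference of -3.89 in log2 terms from D2.

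Among further single genes, Xkrx, an X-linked membrane protein gene, had the most negative log2 fold change of the genes named by rule, with 12.1 and 10.1 CPM for WT against 0.617 and 0.401 CPM for TKO (log2 fold change -4.41 ± 0.60, adjusted p = 2.1e-05). Pfkm, the muscle-type phosphofructokinase of glycolysis, was lower with 106 and 106 CPM for WT against 43.5 and 39.2 CPM for TKO (log2 fold change -1.36 ± 0.13, adjusted p = 3.9e-07), as was the microtubule-associated Map7d3 with 78.7 and 78.2 CPM for WT against 28.6 and 30.9 CPM for TKO (log2 fold change -1.40 ± 0.10, adjusted p = 1.6e-08). Dppa5a, a marker of pluripotent cells, was lower with 386 and 442 CPM for WT against 208 and 177 CPM for TKO, but shares 57.2% of its 31-base words with other genes.

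With 2 libraries a group the precision rests on the spread over all 20 libraries. Without 1 library at a time 4474 to 5095 genes passed at D2, and the number lower in TKO was 2000 without WT replicate 2 against 3135 with all libraries.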

How the data were processed

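Per the labels, poly(A) RNA of WT and TKO ES-E14TG2a cells was sequenced with a strand-specific kit. Trimming with Trim Galore 0.6.2, GRCm38 and kallisto are named in the submitters' processing notes; the kallisto version and transcript set are not given in the sources used here. Per the file headers, the authors deposited for each of 119414 transcripts an estimated count, a TPM value (estimated count per effective length, scaled to a fixed sum), and length and effective length in bases. TPM was used for single transcripts, and lengths for a length-scaled alternative.

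Transcripts were matched to GENCODE M21 genes by identifier (116728 matched, and the rest held 0.943% to 1.1% of counts of a library). For each gene the estimated counts of its transcripts were added and rounded to whole numbers. All 20 libraries (26015282 to 38074768 counts each) were fitted with edgeR 4.0.16 (TMM, filterByExpr, 1 coefficient per group, quasi-likelihood F test, 10 residual degrees of freedom, common biological coefficient of variation 0.0689), and p was adjusted over 18555 genes by Benjamini and Hochberg's method, with a threshold of 0.05. CPM uses TMM-scaled totals. Genes were named by a rule: those with the largest fold change, rise or fall among genes of at least 5 CPM without overlap, those with the largest difference between days, and members of 47 lists. The members and lists were chosen with earlier results of these data known. A gene is called uncertain where at least 10% of its 31-base words occur in other genes. Intervals (95%) and floors (3 counts) cover counting error only. Scripts were tested on simulated data. Other settings tried were DESeq2 1.42.0, its size factors, no filter, a replicate block, length-scaled TPM, a stricter threshold, 2-fold, the compared groups alone, genes of little shared sequence and leaving out each library. Promoter windows are from RefSeq (GRCm38.p6). Some results are not reported here.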

Additional observations from a re-analysis of the deposited data

Results flagged for a closer look

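The genotype difference changed between days in 3421 genes from D0 to D2 and in 2940 genes from D2 to D4, by the test of the difference itself. Values below are the later log2 fold change minus the earlier, for the genes named by rule.

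From D0 to D2 the value was 5.41 for Pga5, 4.36 for Mfap4 (a matrix protein), 4.12 for Stra8, 4.1 for Acpp (a phosphatase), 3.82 for Wnt8a and 3.59 for Kif1a (an axonal motor). Kif1a was lower in TKO at D2, and by less than at D0. Its call at D2 was lost with length-scaled TPM (log2 fold change -0.28, adjusted p = 0.273) and with a replicate block within day (-0.40, adjusted p = 0.0577). Mfap4 measured 1.86 and 1.75 CPM for WT against 5.59 and 5.45 CPM for TKO at D2, and Acpp 0.852 and 0.32 CPM for WT against 4.83 and 5.53 CPM for TKO. It was -3.2 for Dcdc2a (a microtubule protein), -2.93 for Fthl17c, -2.44 for Olfr1459, -2.39 for Nxf3, -2.29 for Sema6a and -2.22 for Stra6 (a retinol transporter). Dcdc2a was still higher in TKO at D2 with 0.232 and 0.437 CPM for WT against 13.3 and 12.6 CPM for TKO. Fthl17c shares 86.8% of its 31-base words with other genes.

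From D2 to D4 the value was 6.31 for Tktl2, 6.18 for AV320801, 5.34 for Tex13c2, 4.92 for Smtnl1, 3.87 for Dazl and 3.55 for Gtsf1 (a piRNA pathway protein). It was -5.25 for Pkd2l1, -5.24 for Dcdc2a, -4.95 for Clic6, -4.62 for Spock1, -3.89 for Amn and -3.76 for Acpp. AV320801 shares 97.5% of its 31-base words with other genes.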

How the results depend on the processing

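Called at D2 were 6549 genes with DESeq2's size factors, 6701 without a filter, 6061 with DESeq2, 5261 with length-scaled TPM and 5449 of the genes with little shared sequence. With a replicate block the number was 6529 over all days and 6092 within day. The compared groups alone gave 7031 genes at D2, 2453 in the difference from D0 and 3340 in that from D4. Replicate numbers were not shown to pair the samples: the correlation of deviations of equal numbers was -0.09 at D2 and 0.21 at most over the 5 days.

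At 2-fold or more 1843 genes were called at D2 (1600 higher, 243 lower), 1104 in the difference from D0 (871 more positive, 233 more negative) and 1042 in that from D4 (294 and 748). At an adjusted p under 0.01 the numbers were 2022 lower at D2, 1700 for D0 (962 and 738) and 1560 for D4 (692 and 868). With length-scaled TPM 1053 were more negative against D0 and 930 more positive at D4. Notch1 turned to -0.20 there. The cause was not tested.

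Without 1 library at a time the ranges were 4474 to 5095 at D2 (2474 to 2672 higher, 2000 to 2424 lower), 2122 to 3894 for D0 (1247 to 2053 more positive, 875 to 1841 more negative) and 1963 to 2425 for D4 (896 to 1180 more positive, 1067 to 1318 more negative). The lowest values came without WT D2 replicate 2. Against D0, 2215 genes passed without TKO D0 replicate 1 and 2253 without TKO D2 replicate 2, and at D4 915 were more positive without TKO D4 replicate 2.

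For 456 named genes, 4639 of 5006 values kept their direction and side of the threshold, 280 lost the call, 86 gained it and 1 reversed. Depth limits genes under 1 CPM, and the 2 libraries a group limit the precision of every value.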

Other observations

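Lists of metabolism and the cell cycle held calls in both directions at D2, beside 18.4% higher and 16.9% lower among all genes tested. Of 25 glycolysis and hypoxia genes 6 were higher and 6 lower, with a median of -0.28. Hk2, a hexokinase, was lower with 198 and 194 CPM for WT against 126 and 126 CPM for TKO (log2 fold change -0.63 ± 0.15, adjusted p = 0.004), while Slc2a1, the main glucose transporter, was higher with 435 and 388 CPM for WT against 733 and 679 CPM for TKO (log2 fold change 0.78 ± 0.19, adjusted p = 0.0039). Of 27 genes of cell cycle and replication 4 were higher and 9 lower. Cdkn2a, a locus of cell cycle inhibitors, was higher with 8.37 and 9.64 CPM for WT against 35.9 and 31.6 CPM for TKO (log2 fold change 1.90 ± 0.10, adjusted p = 4.1e-10), and Top2a, the topoisomerase of dividing cells, was lower with 923 and 924 CPM for WT against 694 and 700 CPM for TKO (log2 fold change -0.41 ± 0.05, adjusted p = 4.4e-06). Of 22 p53 targets 8 were higher and none lower, among them the inhibitor Cdkn1a with 29.1 and 31.9 CPM for WT against 53.4 and 53 CPM for TKO (log2 fold change 0.80 ± 0.07, adjusted p = 1.8e-07).

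Of 29 Polycomb group genes 5 were higher, a share near the 18.4% of all genes tested, and 11 lower, beside 16.9% of all genes. Phc2, a subunit of Polycomb repressive complex 1, was higher with 20.9 and 22.4 CPM for WT against 51.8 and 52.8 CPM for TKO (log2 fold change 1.27 ± 0.07, adjusted p = 8.8e-10), and Mtf2, an accessory subunit of Polycomb repressive complex 2, was lower with 250 and 240 CPM for WT against 159 and 161 CPM for TKO (log2 fold change -0.61 ± 0.06, adjusted p = 4.5e-07). Of 39 annotated Hox genes 31 were tested, with 6 higher and none lower, a share of higher genes near the 18.4% of all genes tested. Hoxd13 had 1.47 and 1.69 CPM for WT against 4.56 and 4.97 CPM for TKO. Of 22 epithelial adhesion genes and keratins 10 were higher and 1 lower.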
